A study of Mus musculus with 25 samples.

Results

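The myosin light chain genes analysed here were Myl1, Myl2, Myl3, Myl4, Mylpf, Mylk2, Myl6, Myl6b, Myl9 and Myl12b. They were chosen by name as 5 sarcomeric light chain genes, the skeletal muscle light chain kinase gene and 4 non-muscle and smooth muscle light chain genes, that is 10 of 26182 mouse genes with a curated RefSeq transcript. They were located in the mouse genome build GRCm38 (mm10), and every Spin1 and H3K4me3 peak at their transcription starts, in their bodies and within 50 kb on each side was collected.

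Myosin is the motor of muscle contraction, and each of its heavy chains carries an essential and a regulatory light chain on the lever arm that swings when ATP is hydrolysed. Muscle fibre types, heart chambers and non-muscle cells use different light chain genes, and a developing skeletal muscle fibre switches on the fast and embryonic sets. Phosphorylation of the regulatory chain by a myosin light chain kinase tunes the force of skeletal muscle and turns on contraction in smooth muscle and non-muscle cells.

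The study asked how Spin1, a chromatin protein whose Tudor-like domains bind histone H3 trimethylated at lysine 4 (H3K4me3, a mark of active promoters), acts in skeletal muscle development. Chromatin immunoprecipitation followed by sequencing (ChIP-seq) was done in primary myoblasts (PriMBs), cultured muscle precursor cells that came from limb muscle of C57BL/6 mice (C57BL/6 N by the study's methods) aged 10 days, with no other genotype or treatment in the labels. There was 1 library with a Spin1 antibody and 1 with an H3K4me3 antibody, each called against an input library, so that no value has a replicate and no difference between libraries or genes could be tested. The 22 RNA-seq samples of the same series were not analysed here.

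The peak lists held 17106 Spin1 and 30763 H3K4me3 regions, each with a position and a score equal to 10 times the negative log10 of the peak caller's p-value. Scores accumulated at 3100, which was reached at promoters of protein-coding genes by 44.7% of Spin1 peaks and 86.2% of H3K4me3 peaks, so peaks at that score cannot be ranked. Read depth is unknown because the lists carry no counts. As a check of the cell type label, 6 of 6 myoblast genes (Myod1, Myf5, Pax7, Des, Cdh15, Itga7) had both peaks within 1 kb of a start. Both peaks were present at 56.7% of protein-coding genes. Among 8 genes of other cells that a limb muscle culture could hold, Pdgfra, Col1a1 and Acta2 had both peaks, Thy1, Cdh5 and Cd68 had H3K4me3 only, and Pecam1 and Ptprc had neither. The study's methods name a preplating step, in which fibroblasts attach to culture dishes and are left behind before the myoblasts are cultured. Peaks are no measure of expression, and the part of other cells in the results below was not tested.

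A gene was counted as occupied when at least 1 bp of a peak lay within 1 kb of the start of any of its curated transcripts. By this rule 7 of the 10 genes had a Spin1 peak, against 56.7% of 21000 protein-coding genes (95% Wilson interval 56.0% to 57.4%, which covers counting error only). An H3K4me3 peak was present at 8 of the 10, against 68% of protein-coding genes. All 7 Spin1-occupied genes (Myl1, Myl4, Mylpf, Myl6, Myl6b, Myl9 and Myl12b) also had H3K4me3, and 56.7% of protein-coding genes had both. Mylk2 had H3K4me3 without Spin1, a state found at 11.3% of protein-coding genes. Myl2 and Myl3, the light chains of slow fibres and the heart ventricle, had neither, as did 32% of protein-coding genes. Nothing particular to the light chain genes is read from these counts beside the shares of all protein-coding genes, and the rest of the description concerns where on the genes the peaks lay.

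Split by class, 3 of 5 sarcomeric light chain genes and 4 of 4 non-muscle light chain genes had both peaks. Myl6b is also an essential chain of slow skeletal fibres, and with it counted as sarcomeric the counts with both peaks were 4 sarcomeric and 3 non-muscle genes. By chain type the counts were 4 of 5 essential chains (Myl1, Myl3, Myl4, Myl6, Myl6b) and 3 of 4 regulatory chains (Myl2, Mylpf, Myl9, Myl12b). The 10 genes have 18 annotated starts, of which 13 had H3K4me3 and 11 had both peaks within 1 kb, against both peaks at 55.3% of 26242 starts of protein-coding genes. All 5 starts of the non-muscle genes had both, whereas 6 of the 12 sarcomeric starts did. The plot of peaks along each gene shows the starts, the peaks and the gene spans.

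**Figure D1:**
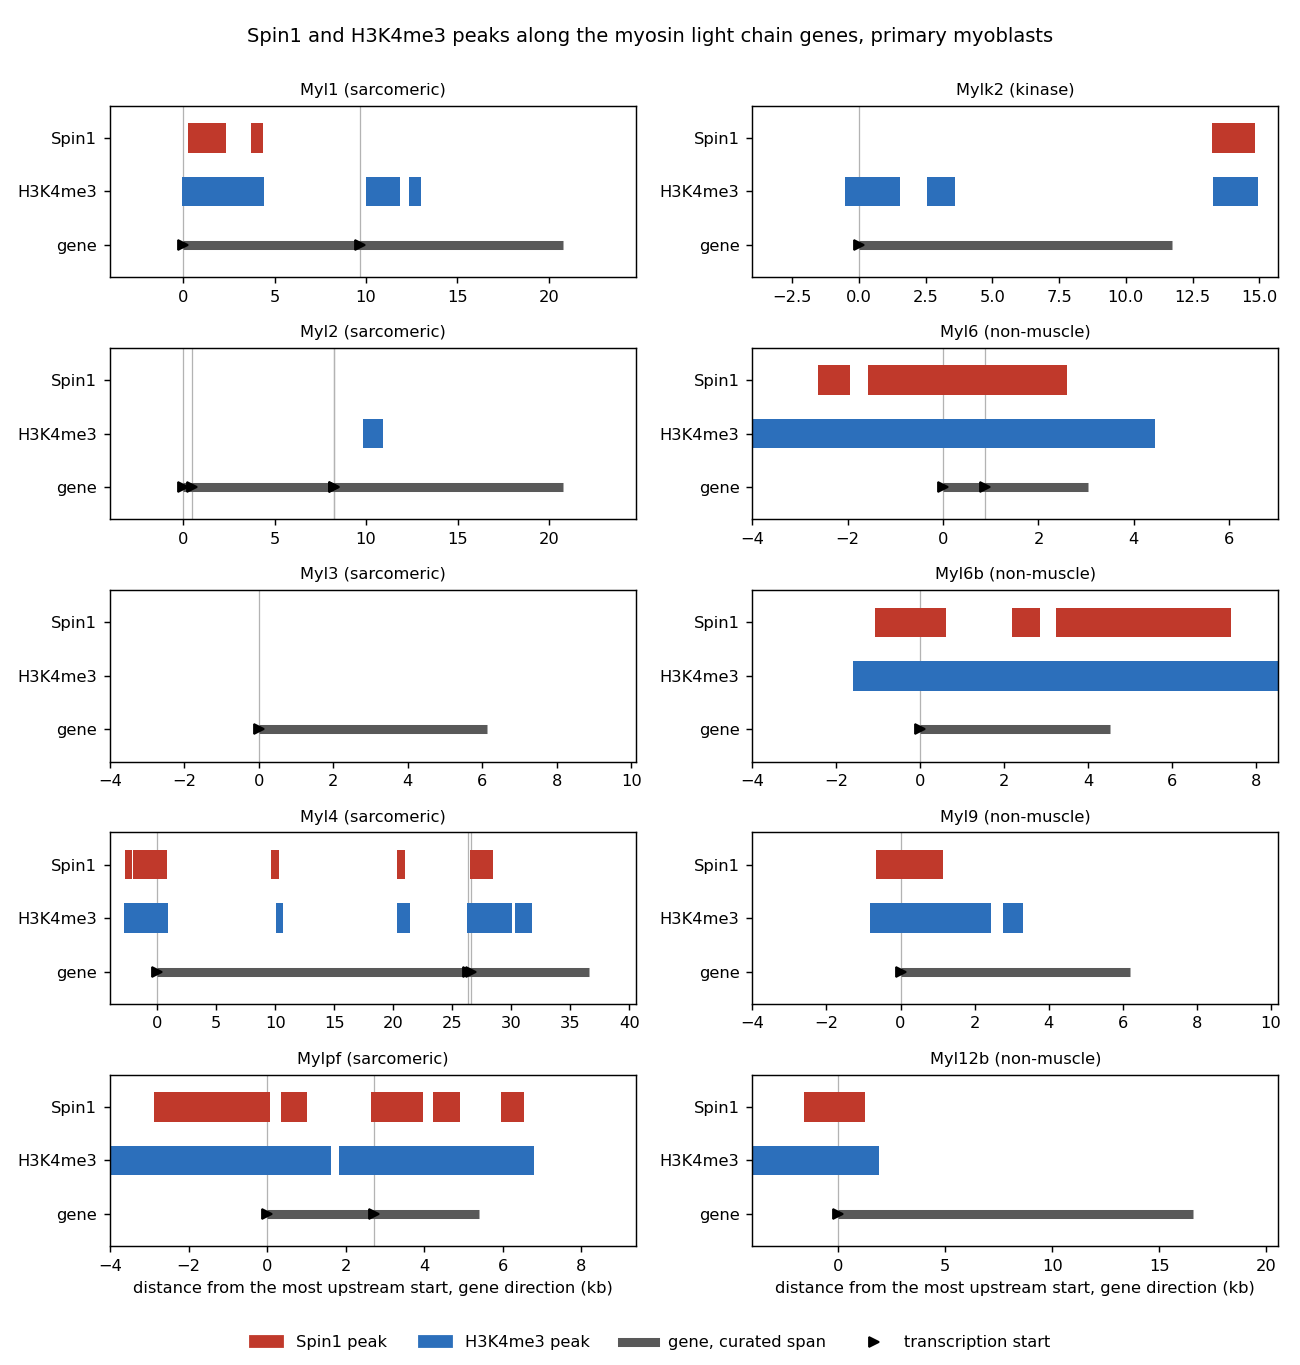
Each panel plots 1 gene, with distance in kb from its most upstream start in the direction of transcription on the horizontal axis; grey bars are the genes, arrowheads are annotated starts, and red and blue bars are Spin1 and H3K4me3 peaks, drawn up to 4 kb beyond each end. Myl2 has only an H3K4me3 peak inside the gene, Myl3 has none, Mylk2 has H3K4me3 at its start without Spin1, and the other genes have both at 1 or more starts.

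The reference sequence in front of 5 of the starts is shown because it spans the range of the group, from CpG-poor promoters of fibre-type genes to a CpG-rich one. Each is the 250 bases before a start, 5' to 3' in the direction of the gene, from RefSeq's promoter sequences on GRCm38, with matches to an E-box (CANNTG) or a CArG box in capitals. The E-box is the site bound by MyoD-family factors, of which the CAGCTG form was also counted on its own, and the CArG box is the site of serum response factor. They are Mylpf and Myl1 (occupied sarcomeric genes), Myl3 (a sarcomeric gene with no peak), and Myl9 and Myl12b (occupied non-muscle genes).
Mylpf, chr7:127211358-127211607, plus strand: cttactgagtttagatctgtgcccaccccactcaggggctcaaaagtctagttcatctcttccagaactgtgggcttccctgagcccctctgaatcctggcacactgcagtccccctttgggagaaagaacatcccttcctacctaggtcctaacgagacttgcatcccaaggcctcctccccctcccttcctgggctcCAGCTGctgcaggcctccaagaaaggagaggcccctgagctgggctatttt
Myl1, chr1:66945057-66945306, minus strand: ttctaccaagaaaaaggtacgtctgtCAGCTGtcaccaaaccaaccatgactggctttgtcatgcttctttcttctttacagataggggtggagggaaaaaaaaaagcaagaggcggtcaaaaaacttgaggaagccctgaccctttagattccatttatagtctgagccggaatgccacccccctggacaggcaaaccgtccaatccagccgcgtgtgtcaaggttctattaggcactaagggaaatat
Myl3, chr9:110763428-110763677, plus strand: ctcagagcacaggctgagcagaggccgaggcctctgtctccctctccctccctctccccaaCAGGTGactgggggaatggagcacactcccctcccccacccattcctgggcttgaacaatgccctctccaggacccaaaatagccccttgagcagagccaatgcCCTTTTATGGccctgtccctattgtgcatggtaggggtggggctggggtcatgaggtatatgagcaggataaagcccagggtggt
Myl9, chr2:156775214-156775463, plus strand: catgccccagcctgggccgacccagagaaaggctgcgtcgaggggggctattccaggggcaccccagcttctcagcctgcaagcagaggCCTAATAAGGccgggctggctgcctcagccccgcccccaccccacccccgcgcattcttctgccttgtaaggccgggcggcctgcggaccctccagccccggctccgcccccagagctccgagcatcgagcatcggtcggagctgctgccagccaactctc
Myl12b, chr17:70990517-70990766, minus strand: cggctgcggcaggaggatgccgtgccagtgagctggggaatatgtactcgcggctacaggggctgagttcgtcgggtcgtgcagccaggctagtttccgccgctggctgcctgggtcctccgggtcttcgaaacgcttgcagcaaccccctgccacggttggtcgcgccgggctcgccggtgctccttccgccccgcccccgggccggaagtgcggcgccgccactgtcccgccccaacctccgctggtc
The capitals mark a CAGCTG at -51 to -46 from the Mylpf start, a CAGCTG at -224 to -219 in Myl1, a CAGGTG at -189 to -184 and a CArG box at -85 to -76 in Myl3, and a CArG box at -161 to -152 in Myl9. The Myl12b window held no match.

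Mylpf encodes the regulatory light chain of fast skeletal fibres. It lies at chr7:127208899-127214287 on the plus strand and has 2 starts, a far upstream one and, 2709 bp downstream, the start of the transcript that RefSeq selects as representative. At this inner start a Spin1 peak at chr7:127211542-127212871 (1330 bp, score 663.23) reached from -66 to 1263 bp relative to the start, so the CAGCTG printed above lay inside it, near its upstream edge. It lay within an H3K4me3 peak at chr7:127210724-127215687 (4964 bp, score 3100), which began at -884 bp and ran past the end of the gene. Spin1 covered 52.6% of that H3K4me3 peak in 3 peaks, the others being weaker, with 1 centred on coding exon 4 (692 bp, score 171.58) and 1 past the end of the gene (588 bp, score 133.64). Mylpf was the sarcomeric gene with the largest share of its body covered, with H3K4me3 over 96.2% and Spin1 over 51.2%. The medians over protein-coding genes of any length were 4.96% and 1.62%. These shares depend on gene length. Mylpf spans 5389 bp, whereas Myl1, with the same 2759 bp under Spin1, spans 20762 bp and had a Spin1 share of 13.3%. Part of the Mylpf cover came from peaks shared with Tbc1d10b, described next.

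The upstream start of Mylpf lies 431 bp from the start of Tbc1d10b on the opposite strand. Its Spin1 peak at chr7:127206019-127208970 (2952 bp, score 3100) ran from -2880 to 71 bp relative to the Mylpf start, most of it towards Tbc1d10b. A small Spin1 peak followed in intron 1 (665 bp, score 108.54), and an H3K4me3 peak of 5957 bp (score 3100) spanned the shared region. The Spin1 score at the fast-muscle start was thus below that at the shared start, and higher than the score of 18.3% of Spin1 peaks at promoters, while H3K4me3 reached 3100 at each. Spin1 at Mylpf did not depend on the shared peak, because the inner peak overlapped no other gene's start.

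Myl1 encodes the essential light chains of fast skeletal fibres, a longer and a shorter form made from a pair of alternative promoters. The gene lies at chr1:66924295-66945056 on the minus strand, and its 2 starts are 9690 bp apart. At the upstream start, that of the longer form, an H3K4me3 peak at chr1:66940638-66945103 (4466 bp, score 2499.98) ran from -47 to 4418 bp relative to the start. It was wider than 79.9% of H3K4me3 peaks at promoters. Inside it lay 3 Spin1 peaks, all in intron 1, which together covered 61.8% of its length.

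The nearest of these Spin1 peaks (chr1:66944099-66944763, 665 bp, score 201.53) began 293 bp after the start. Next to it was the strongest (chr1:66942692-66944097, 1406 bp, score 642.65), and the last (688 bp, score 101.94) began 3698 bp after the start. The first base of Myl1 was therefore not itself under a Spin1 peak. Among the 11911 protein-coding genes with Spin1 within 1 kb, the start base of at least 1 transcript was under a Spin1 peak in 96.6%, and this held for 6 of the 7 occupied light chain genes, Myl1 being the exception. With the window ended 0.1 kb after the start, Myl1 lost its Spin1 call. The small peak beside the start held a CAGCTG 748 to 753 bp into the gene, shown here with 17 bases on each side.
Myl1, chr1:66944286-66944325, minus strand: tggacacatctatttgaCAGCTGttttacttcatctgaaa
At the inner Myl1 start, that of the shorter form, a smaller H3K4me3 peak (1868 bp, score 481.61) began 320 bp after the start, followed by another of 686 bp (score 77.6). There was no Spin1 peak within 5305 bp. Spin1 was thus called at 1 of the 2 Myl1 starts, both of which had H3K4me3 within 1 kb. Spin1 at some starts and not at all of them was found in 60.2% of 1546 protein-coding genes. These genes had starts over 2 kb apart and H3K4me3 within 1 kb of at least 1 start. The share also counts genes whose starts without Spin1 lack H3K4me3, so it does not give the frequency of the Myl1 state.

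Myl4 encodes the essential light chain of embryonic muscle and the heart atria. It lies at chr11:104550663-104587215 on the plus strand, with an upstream start and a pair of inner starts 26322 and 26618 bp downstream, the last being that of the representative transcript. Over both inner starts lay an H3K4me3 peak at chr11:104576913-104580713 (3801 bp, score 3100). Inside it, a Spin1 peak at chr11:104577160-104579088 (1929 bp, score 566.67) covered 50.7% of its length. That Spin1 peak began 175 bp after the first inner start, so it lay over the last start only. The Spin1 peak ran from -121 to 1807 bp relative to the representative start, with its centre in intron 1. It scored higher than 16.2% of Spin1 peaks at promoters, close to the position of the Mylpf inner peak.

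The Spin1 peak at the inner Myl4 starts held 13 E-boxes, of which 4 were CAGCTG. This is 2.07 CAGCTG per kb, against a median of 0.437 per kb over 11797 Spin1 peaks at promoters. The 3 that lie outside exons of curated transcripts are shown with 17 bases on each side and the E-box in capitals. They are in order at -27 to -22, 496 to 501 and 942 to 947 from the representative start.
Myl4 first site, chr11:104577237-104577276, plus strand: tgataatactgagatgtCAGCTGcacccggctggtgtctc
Myl4 second site, chr11:104577760-104577799, plus strand: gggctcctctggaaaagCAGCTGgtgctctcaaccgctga
Myl4 last site, chr11:104578206-104578245, plus strand: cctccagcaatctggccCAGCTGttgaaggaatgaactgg
The corresponding Spin1 peak at the inner Mylpf start held 4 E-boxes and 1 CAGCTG, and the stronger of the Myl1 peaks 6 E-boxes and no CAGCTG. These letters were present in 64.4% of Spin1 peaks at promoters, so its presence alone does not set these genes apart.

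The upstream Myl4 start lies 43 bp from the start of Cdc27 on the opposite strand, and Spin1 (2870 bp, score 3100) and H3K4me3 (3736 bp, score 3100) spanned that shared region. Together with a weak Spin1 peak further upstream (657 bp, score 79.79), Spin1 covered 94.4% of this H3K4me3 peak. As at Mylpf, the Spin1 score was higher at the start shared with a neighbour than at the muscle start, whereas H3K4me3 reached 3100 at each. Between the starts, intron 1 held 2 weak Spin1 peaks (681 bp, score 157.62, and 685 bp, score 118.27), each overlapping an H3K4me3 peak. The first of these H3K4me3 peaks (641 bp, score 55.68) also lay at the start of the gene Gm11665, and the second measured 1094 bp (score 603.46). A further H3K4me3 peak without Spin1 (1416 bp, score 1290.91) followed in intron 2 of the representative transcript.

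Myl2 encodes the regulatory light chain of slow skeletal fibres and the heart ventricle. Its locus, chr5:122092724-122113473 on the plus strand, has 4 starts, and neither antibody gave a peak within 1 kb of any of them. The gene held 1 H3K4me3 peak, at chr5:122102533-122103638 (1106 bp, score 435.12), which began 1553 bp after the last start, in intron 3, and was covered by no Spin1 peak. The nearest H3K4me3 peak upstream of the gene (1315 bp, score 890.57) ended 6381 bp before the first start. The nearest Spin1 peak lay 42161 bp from a start. Myl2 thus carried H3K4me3 inside the gene body and no Spin1.

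Myl3 encodes the essential light chain of the same slow fibres and ventricle. The gene, at chr9:110763678-110769802 on the plus strand with 1 start, had no peak of either kind at its start or in its body. The nearest Spin1 peak (chr9:110781221-110782365, 1145 bp, score 410.42) and the H3K4me3 peak around it (chr9:110780293-110782490, 2198 bp, score 3100) lay 17543 and 16615 bp downstream of the start. Both were outside any gene with a curated transcript. The starts of Myl2 and Myl3 were therefore unoccupied. Myl6b, which slow fibres also use, had both peaks, each of them also at another gene's start.

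Mylk2 encodes the skeletal muscle myosin light chain kinase, which phosphorylates the regulatory chain encoded by Mylpf. It lies at chr2:152911352-152923065 on the plus strand. An H3K4me3 peak at chr2:152910835-152912895 (2061 bp, score 1079.47) spanned its start, from -517 to 1543 bp, and was wider than 20.6% of H3K4me3 peaks at promoters. A second H3K4me3 peak (1064 bp, score 320.05) lay in intron 3. No Spin1 peak overlapped either, and the nearest Spin1 peak (1602 bp, score 773.4) began 13236 bp after the start, beyond the end of the gene. It coincided with an H3K4me3 peak of 1698 bp (score 413.72), so Spin1 and H3K4me3 did meet close to Mylk2, away from any curated start.

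Among the non-muscle genes, Myl6 (the essential light chain of non-muscle and smooth muscle myosin) and Myl6b (a closely related essential chain of non-muscle cells and slow fibres) lie next to each other on the minus strand of chromosome 10. Myl6 occupies chr10:128490859-128493886 and Myl6b chr10:128494157-128498685, with 270 bp between them. A single H3K4me3 peak at chr10:128489433-128500279 (10847 bp, score 3100) spanned both genes completely and was wider than 99.4% of H3K4me3 peaks at promoters. It also took in the start of A430046D13Rik, which lies 562 bp from that of Myl6b on the opposite strand. H3K4me3 at these genes can thus not be assigned to 1 of them.

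Spin1 resolved this block into separate peaks that covered 60.1% of it. The largest (chr10:128491287-128495459, 4173 bp, score 3100) covered both Myl6 starts, which are 877 bp apart, and was wider than 93.9% of Spin1 peaks at promoters. At the Myl6b start the Spin1 peak was smaller (chr10:128498080-128499760, 1681 bp, score 406.51), and it was shared with A430046D13Rik. Another peak (665 bp, score 108.54) lay in intron 4 of Myl6b. Myl6 thus had the widest Spin1 promoter peak of the 10 genes, whereas that of Myl6b was below the median width of all promoters.

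Myl9 encodes the regulatory light chain of smooth muscle. It lies at chr2:156775464-156781657 on the plus strand with 1 start, and no other gene's start shared its promoter peaks. Spin1 at chr2:156774790-156776599 (1810 bp, score 897.62) lay inside H3K4me3 at chr2:156774651-156777910 (3260 bp, score 3100) and covered 55.5% of it. The H3K4me3 width was near the median of all promoters, and a further H3K4me3 peak in intron 1 (550 bp, score 56.23) had no Spin1. Myl9 had the plainest arrangement of the group, with 1 promoter peak of each kind, each centred inside the gene.

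Myl12b encodes a regulatory light chain of non-muscle myosin and lies at chr17:70973963-70990516 on the minus strand, 3276 bp downstream of its close relative Myl12a. The H3K4me3 peak over its start, chr17:70988612-71004042 (15431 bp, score 3100), ran from 1904 bp inside Myl12b across the whole of Myl12a and its promoter. It was wider than 99.9% of H3K4me3 peaks at promoters. Spin1 covered 70.3% of it in 4 peaks. The Myl12b start had its own Spin1 peak at chr17:70989262-70992089 (2828 bp, score 1688.39), and the widest (5637 bp, score 3100) lay at the start region of Myl12a. Both of these regulatory chain genes were thus occupied, inside a single H3K4me3 domain. Reads from these close relatives can be hard to place. The study's methods give default alignment settings and name uniquely mapped reads for the signal profiles, and do not say whether peak calling used the same reads.

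The widths of the promoter peaks summarise these loci. Over all Spin1 peaks at promoters the median width was 2184 bp, with quartiles of 1600 and 2887 bp. The 11 Spin1 promoter peaks of the 10 genes had a median of 1810 bp, with 1406 bp over the 7 at sarcomeric genes and 2319 bp over the 4 at non-muscle genes. At the muscle starts of Mylpf, Myl1 and Myl4, away from any other gene's start, the widths were 1330, 1406, 665 and 1929 bp, all below the genome-wide median. The Myl1 peaks of 1406 and 665 bp nearly touch, and together they measure 2071 bp, which lies between the quartiles. The 10 distinct H3K4me3 promoter peaks, with the region shared by Myl6 and Myl6b counted once, had a median of 4133.5 bp, against 3080 bp over all promoters (quartiles 2238 and 4141 bp). At the muscle starts the H3K4me3 widths varied, from 4964 bp at the inner Mylpf start and 4466 bp at the upstream Myl1 start, both above the upper quartile, through 3801 bp at the inner Myl4 starts to 1868 bp at the inner Myl1 start, below the lower quartile. The share of H3K4me3 covered by Spin1 was 52.6% at Mylpf, 61.8% at Myl1 and 50.7% at the inner Myl4 starts, against a median of 65.9% (quartiles 55.6% and 75.1%) over 11098 promoter H3K4me3 peaks with Spin1.

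**Figure D2:**
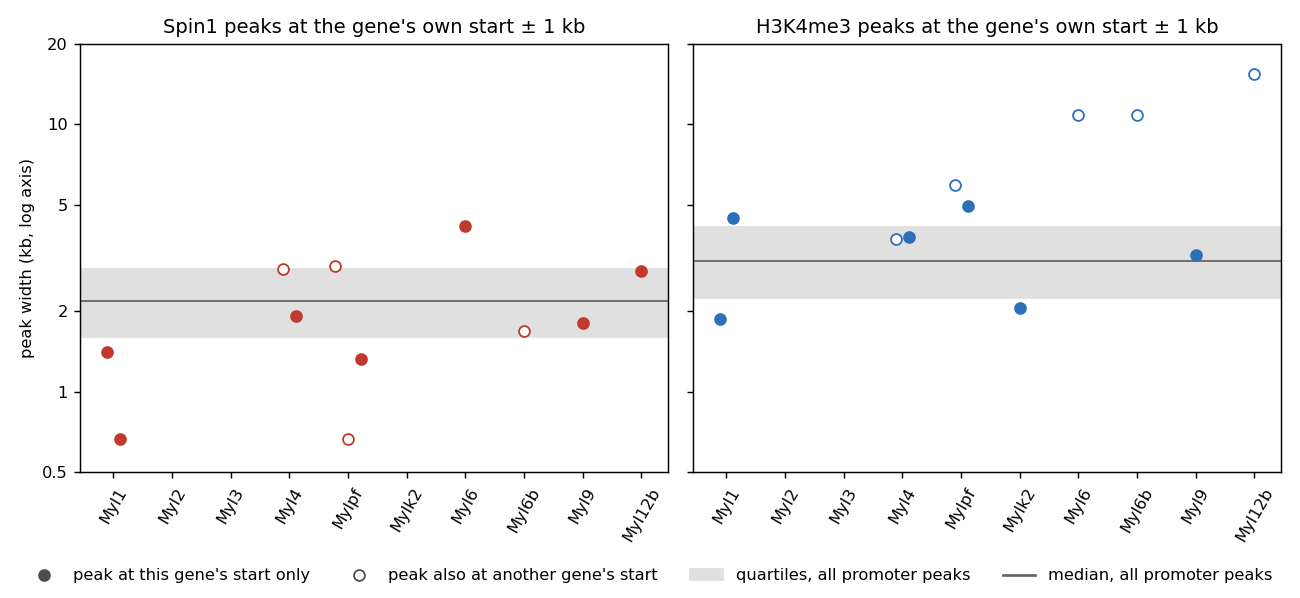
Width in kb on a log axis of each Spin1 (left) and H3K4me3 (right) peak within 1 kb of a start of each gene; open circles also lie at another gene's start, and the grey band and line give the quartiles and median over all promoter peaks. The Spin1 peaks of Myl1, which nearly touch each other, and the filled Mylpf point lie below the band. The H3K4me3 peaks of Myl6, Myl6b and Myl12b, at 10847 and 15431 bp, lie far above it.

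Peaks shared with neighbours contributed to several of these calls. With every peak left out that also lay at another gene's start, an alternative chosen after seeing the data, both peaks remained at Myl1, Myl4, Mylpf and Myl9. Myl6 and Myl12b then kept Spin1 without H3K4me3, and Myl6b lost both. The 3 occupied sarcomeric genes thus kept their calls and the non-muscle genes went from 4 to 1 with both peaks. With the top 50% of each list's scores instead, Spin1 was left at Myl4, Mylpf, Myl6 and Myl12b, and at Myl4 and Mylpf only through the peaks shared with Cdc27 and Tbc1d10b, since their inner peaks scored below the Spin1 list's median of 1239.

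Within 50 kb, the loci differed in how crowded they were. The median number of peaks in the gene and 50 kb on each side was 4 for Spin1 and 5 for H3K4me3 over the 10 genes, against 2 and 3 over protein-coding genes. The quartiles over protein-coding genes were 1 and 4 for Spin1 and 1 and 6 for H3K4me3. The windows of Myl6 and Myl6b share most of their peaks, which these medians count for each gene. In all, 43 distinct Spin1 and 55 distinct H3K4me3 peaks lay in the windows of the 10 genes, of which 15 and 26 overlapped no start within 1 kb. All 15 of these Spin1 peaks overlapped an H3K4me3 peak, against 72.6% of 5309 such Spin1 peaks genome-wide. Both figures count any H3K4me3 peak, also one at a start. Most of the 15 overlapped H3K4me3 peaks at starts, such as those of 4964 bp at Mylpf, 10847 bp at Myl6 and 15431 bp at Myl12b. The 15 Spin1 peaks were mostly weak, with scores from 79.79 to 1003.65 and a median of 133.64. Conversely, 7 of the 26 H3K4me3 peaks away from starts overlapped Spin1, a count without a genome-wide share beside it, since none was computed. The map of the 50 kb surroundings places them by gene.

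**Figure D3:**
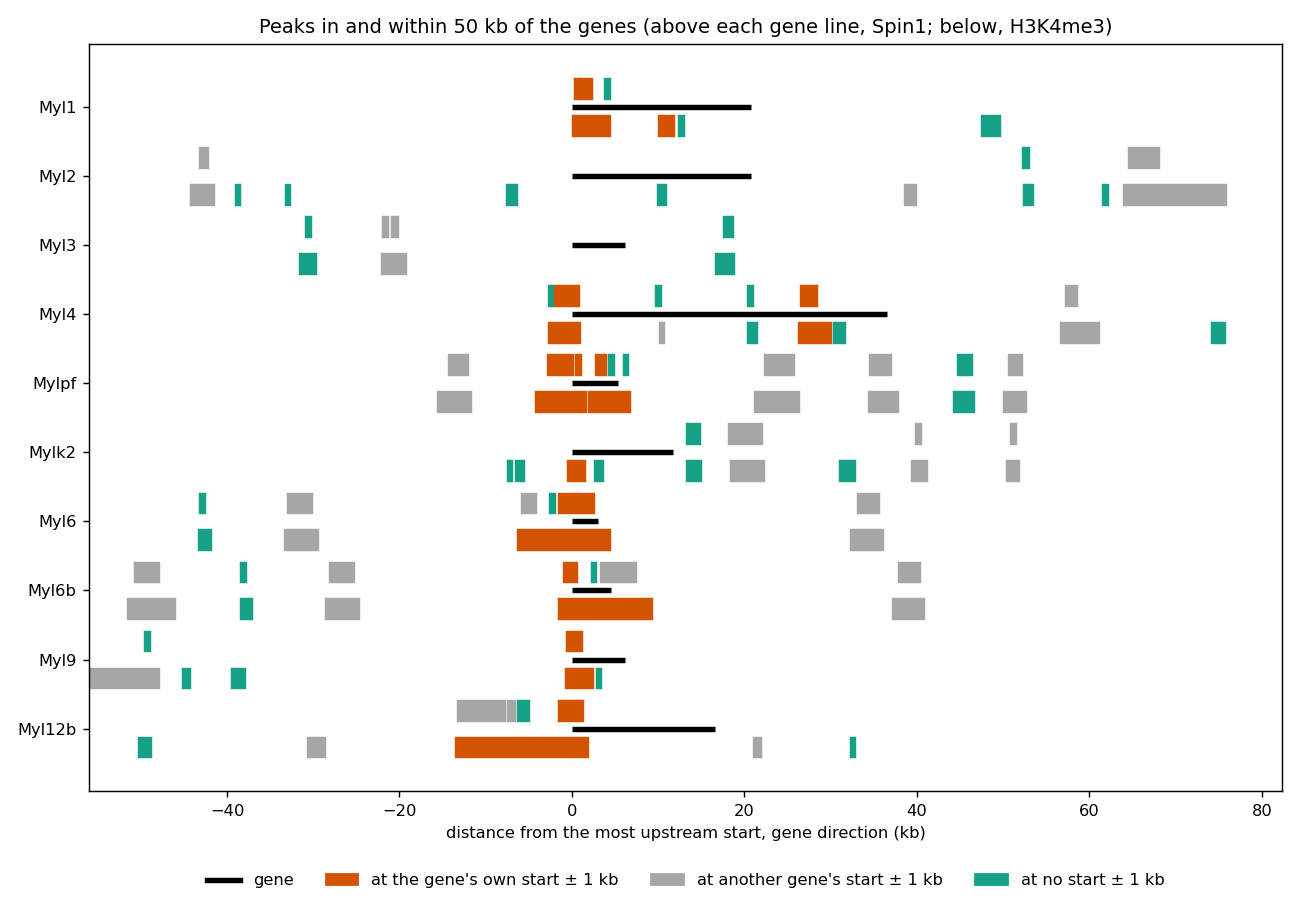
Each row plots 1 gene (black line) with Spin1 peaks above and H3K4me3 peaks below it, by distance in kb from the most upstream start in the direction of transcription; colours separate peaks at the gene's own start, at another gene's start and at no start. The peak nearest to the Myl3 start lies 16615 bp away, while Mylpf and Mylk2 lie among several occupied promoters of other genes.

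The strongest Spin1 peak away from any start (1727 bp, score 1003.65) lay 41899 bp after the inner Mylpf start, under an H3K4me3 peak of 2382 bp (score 3100). It overlapped the body of another gene, Zfp771. The downstream Mylk2 and Myl3 regions given above (scores 773.4 and 410.42) came next in strength. Nothing in these lists links such a region to a particular gene.

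The promoter sequences were then set against occupancy. RefSeq's promoter table (250 bases before to 50 after a start) held 11 entries for 9 of the 10 genes, with Mylk2 not among them. The starts of the representative Myl1, Myl2 and Myl4 transcripts and the upstream Mylpf start were also absent. The promoter CpG ratios and the motif matches before starts therefore do not cover these. CpG content was expressed as the ratio of observed to expected CpG, which is low in tissue-specific promoters and high in CpG islands. It was 0.042 at Myl3 and 0.051 and 0.298 at the 2 listed Myl2 starts, all without peaks, and 0.886 at the upstream Myl4 start and 0.898 at Myl12b, both occupied. Myl9 (0.583), Myl6b (0.597) and the outer Myl6 start (0.618) lay in between. Over all protein-coding promoters the median ratio was 0.792 where both peaks were present, 0.513 with H3K4me3 only and 0.176 with neither.

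The listed light chain promoters followed that order only in part. Of the occupied entries, only the upstream Myl4 start and Myl12b lay above the lower quartile of occupied promoters (0.631). The inner Mylpf start was furthest below it. Its ratio of 0.089 was in the range of Myl2 and Myl3, yet it had both peaks. Of 11515 occupied protein-coding promoters, 8.84% had a ratio below 0.4, which was also the case at the inner Myl6 start (0.199), while the Myl1 upstream start stood at 0.421. Over the Spin1 peaks themselves, the ratio was 0.154 at the inner Mylpf start and 0.177 at the inner Myl4 starts. The median over Spin1 peaks at promoters was 0.608, with 9.96% below 0.4, and the median over Spin1 peaks away from promoters was 0.278. By this ratio the Spin1 regions at the inner Mylpf and Myl4 starts were nearer to those away from promoters. So were the Myl1 promoter peaks (0.407 and 0.406) and those of the non-muscle genes Myl9 (0.319) and Myl6 (0.343). The larger upstream peaks of Myl4 (0.627) and Mylpf (0.545), shared with Cdc27 and Tbc1d10b, were nearer to the promoter median. The peaks of Myl12b (0.592) and Myl6b (0.514) were too. The small Mylpf peak at the shared start (0.373) was not. GC content did not follow this split at Myl4, with 54.1% in the inner and 46.9% in the upstream peak. At Mylpf it did, with 48.7% in the inner and 59.0% in the larger upstream peak. The medians were 53.4% at promoters and 49.6% away from them.

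**Figure D4:**
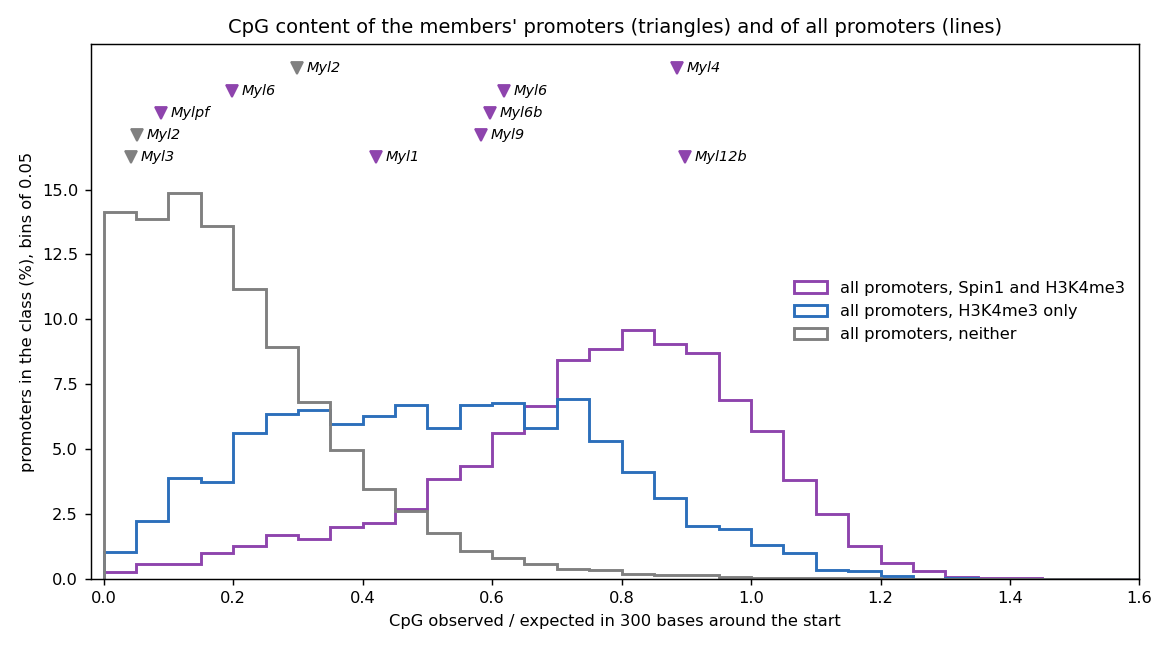
Observed over expected CpG around each start is on the horizontal axis; lines give the percentage of all promoters in each class per bin of 0.05, and triangles mark the listed promoters of the 10 genes in the colour of their class, with their height chosen for legibility. Mylpf, at 0.089, is occupied and sits beside the unoccupied Myl3 and Myl2 promoters.

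Motif matches in the 250 bases before the listed starts, searched on both strands, did not separate occupied from unoccupied entries. The representative starts of Myl1, Myl2 and Myl4 were not among these entries. An E-box (CANNTG) was present at Myl1, both Myl2 entries, Myl3, Mylpf, the outer Myl6 start and Myl6b, and in 62.8% of all promoters. Its CAGCTG form was present at Myl1, Mylpf and the second Myl2 entry, and in 12.1% of all promoters. A CArG box was found at Myl3, Myl9 and the inner Myl6 start, against 1.39% of all promoters. No entry held the MEF2 consensus (1.57% of all promoters) or a TATAA from 40 to 21 bases before the start on the gene's strand (4.02%). A match is a string of letters and does not show that a factor was bound.

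Other genes of the myosin pathway, from lists that give the rest of each class, place the light chains among their partners. Of the other light chain genes, Myl12a had both peaks, and Myl7 (the atrial regulatory chain) and Myl10 had neither. None of 9 sarcomeric heavy chain genes had a Spin1 peak at a start, and 3 had H3K4me3, namely Myh3 (embryonic, 5727 bp, score 3100), Myh1 (score 252.29) and Myh8 (score 97.45). The embryonic heavy chain gene thus had H3K4me3 at the highest score without Spin1, whereas the embryonic and fast light chain genes Myl4, Mylpf and Myl1 had both. No test of light against heavy chains was made.

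Among non-muscle heavy chain genes, Myh9 and Myh10 had both peaks and Myh14 had H3K4me3 only, as did the smooth muscle heavy chain gene Myh11. Among other kinases that phosphorylate the regulatory chain, Rock1, Rock2 and Dapk3 had both, and Mylk, Mylk3 and Mylk4 had neither. Mylk was scored at its 1 curated start only. By curated starts, Mylk2 was thus the sole gene of the Mylk family listed here with a promoter peak of either kind. All 4 myosin phosphatase genes (Ppp1cb, Ppp1r12a, Ppp1r12b and Ppp1r12c) had both.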

How the data were processed

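ChIP-seq of Spin1 and H3K4me3 in primary myoblasts was analysed, with 1 library per antibody. Alignment to mm10 by the authors used bowtie 2 on paired-end reads, and MACS 1.4.2 called peaks against input. The deposited lists give each peak's position and a score, the negative log10 of its p-value multiplied by 10. Read counts are not in the lists, so depth is unknown. Peaks were intersected with curated transcripts of RefSeq annotation release 108.20200622 (GRCm38.p6), counting an overlap of at least 1 bp with 1 kb on each side of a start. Shares have 95% Wilson intervals. Sequences were read with pysam 0.24.0, and tables were made with Python 3.11.15, pandas 2.3.3 and SciPy 1.17.1. The overlap code was tested on simulated data. Named genes were all 10 members, the listed genes of the myosin pathway, and genes whose start shared a peak with a member or lay under a peak in a member's body. Members and lists were chosen with earlier results of these data known. Alternatives changed the window, score threshold, overlap rule and transcript set.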

Additional observations from a re-analysis of the deposited data

How the results depend on the processing

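No paired analysis was possible because each antibody has 1 library. The counts of the 10 genes kept within 1.5 times their main value in 37 of 47 alternatives. With the top 50% of scores, Spin1 and both peaks were found at 4 genes and both at 2 non-muscle genes, with 42.9%, 63% and 42.9% of protein-coding genes having Spin1, H3K4me3 and both. Myl1, Myl6b and Myl9 lost Spin1 and Mylk2 lost H3K4me3 there. When the peak centre had to lie in the window, H3K4me3 was found at 4 genes, both peaks at 3, both at 1 sarcomeric and 2 non-muscle genes, with shares of 52.7%, 56.3% and 45.2%. Without peaks at another gene's start, an alternative chosen after seeing the data, the counts were 5 with H3K4me3, 4 with both and 1 non-muscle gene with both. With 1 start per gene, or a window ending 0.1 kb after the start, Myl1 lost Spin1. The shares (Spin1, H3K4me3 and both, where they moved beyond their interval) were 55.8%, 67.2% and 55.8% with 1 start per gene, 55.8% and 55.8% for Spin1 and both with the short window, 68.7% for H3K4me3 within 2 kb and 67.3% for H3K4me3 with scores of at least 100. They were 57.6%, 69% and 57.6% with predicted transcripts, and 50.7%, 61.9% and 50.6% over all curated genes. Within 2 kb, Myl2 gained H3K4me3. H3K4me3 peaks at no start fell from 26 to 13 with 20 kb flanks, and Spin1 covered 6057 bp of the gene bodies with the top 50% of scores. Depth and the accumulation of scores at 3100 limit any ranking of strong peaks, and without replicates no difference between genes has an error.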
